A study of Mus musculus with 2 samples.

Results

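Immunoglobulin gene segments, the building blocks of antibody genes, were examined in the accessible chromatin of activated regulatory T cells, which make no antibody. Members were all genes of the GENCODE M21 annotation whose type is an immunoglobulin V, D, J, C or LV gene, which gave 268 of 55413 annotated genes. The heavy chain locus Igh on chromosome 12 held 146 of them (115 V, 19 D, 4 J and 8 C), the kappa light chain locus Igk on chromosome 6 held 108 (102 V, 5 J and 1 C), and the lambda locus Igl on chromosome 16 held 12 (3 V, 5 J and 4 C). The other 2, Gm17472 and Gm20730, lie on chromosome 6 outside these loci. For each locus, the window ran from the first to the last segment with 50 kb on either side.

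The cells form 1 group and came from male adult mice aged 4 months, with 1 donor label for both libraries, that carry the alleles Foxp3CreERT2 and Rosa26YFP, in which the Foxp3 gene, active in regulatory T cells, drives the inducible Cre and Rosa26 holds the reporter. The labels call them primary cells and trace them to bone marrow hematopoietic cells, and they state neither how the cells were activated nor the rest of the strain background. ATAC-seq, which cuts open chromatin with a transposase, was run on 2 libraries, technical replicates of biological replicate 1, and the authors' peak lists pool them. There is thus no second animal behind any value, no spread can be given, no comparison below carries a test, and the read depth is unknown.

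B cells assemble antibody genes by V(D)J recombination. The RAG recombinase cuts beside a segment at a recombination signal, which consists of a conserved heptamer, a spacer of fixed length and a nonamer, and joins a V segment to a D or J segment. T cells use the same enzyme on their receptor loci and normally leave immunoglobulin V segments unjoined. Enhancers lie in the introns between the J and C segments of Igh and Igk and past the 3′ ends of the constant genes, and each V segment has its promoter at its 5′ end and its recombination signal at its 3′ end.

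A region was a set of overlapping peaks, with the signal value, −log10 p and summit of its strongest peak. The signal is an enrichment that the authors' peak caller attached to each peak, and no source used here states its baseline. The lists hold only peaks above the caller's limit, so a segment without a region may still have weaker signal. The main list was the one past a threshold on the irreproducible discovery rate (IDR), a measure of how well 2 rankings of the peaks match. The wider pseudoreplicated list was set beside it.

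In the thresholded list, the strongest summits at Igh V segments lay within 150 bp of the 3′ end, the side of the recombination signal. The 3′ ends shown first are those of 4 of the V segments with the strongest regions, of 2 whose spacers differ from these, and of the V segment with the weakest region. They are followed by 3 Igh V segments with no region in either list, the functional members of families Ighv5, Ighv2 and Ighv3 that lie nearest the D segments. The sequences are from RefSeq GRCm38.p6 (mm10), read on the strand of the segment, with the last bases of the segment followed by 50 past its annotated end. Capitals mark the best match to the heptamer CACAGTG and, at the spacing of the signal, to the nonamer ACAAAAACC, however weak the match. Where present past the segment's end, the letters ACCACA, the reverse complement of the Runx motif TGTGGT, are in capitals too.
Ighv1-47, chr12:114991058-114991117, minus strand: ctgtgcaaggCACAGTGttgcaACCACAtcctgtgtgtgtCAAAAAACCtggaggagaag
Ighv14-2, chr12:113994419-113994478, minus strand: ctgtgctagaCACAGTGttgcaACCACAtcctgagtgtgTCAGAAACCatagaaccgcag
Ighv1-58, chr12:115312116-115312175, minus strand: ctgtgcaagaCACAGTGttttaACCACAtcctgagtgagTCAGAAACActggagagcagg
Ighv9-4, chr12:114299911-114299970, minus strand: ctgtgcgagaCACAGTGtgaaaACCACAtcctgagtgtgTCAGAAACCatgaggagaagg
Ighv8-6, chr12:115165727-115165786, minus strand: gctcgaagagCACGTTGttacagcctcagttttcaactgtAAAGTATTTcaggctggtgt
Ighv11-2, chr12:114048191-114048250, minus strand: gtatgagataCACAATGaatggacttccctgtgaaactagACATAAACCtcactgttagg
Ighv1-12, chr12:114615800-114615859, minus strand: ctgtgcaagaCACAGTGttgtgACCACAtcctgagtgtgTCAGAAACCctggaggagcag
Ighv5-2, chr12:113578454-113578513, minus strand: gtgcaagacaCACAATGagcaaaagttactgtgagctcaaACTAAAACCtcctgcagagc
Ighv2-2, chr12:113588217-113588276, minus strand: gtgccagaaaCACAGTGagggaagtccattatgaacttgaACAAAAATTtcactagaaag
Ighv3-1, chr12:113964338-113964397, minus strand: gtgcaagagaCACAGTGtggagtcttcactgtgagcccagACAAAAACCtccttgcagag

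In the first 4 sequences and in Ighv1-12 the heptamer CACAGTG follows the segment and ACCACA lies in the spacer before the nonamer. In Ighv8-6 and Ighv11-2 the spacer lacks these letters, and the heptamers differ from CACAGTG. The letters marked as the nonamer of Ighv8-6, AAAGTATTT, differ from ACAAAAACC at most positions, so no clear nonamer is shown there. The 3 segments with no region carry a heptamer and nonamer too, exact or with mismatches, and none of the 3 spacers holds ACCACA. No segment of families Ighv5, Ighv2 and Ighv3 holds these letters in its spacer, so their absence here follows from the choice of families. Of the 47 Igh V segments with the letters, 25 had a region in the pseudoreplicated list. The letters thus also occur at segments without a region, none of which is shown.

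A thresholded region lay within 1000 bp of 16 of the 268 segments (5.97%), against 28.5% of all annotated genes. It overlapped 14 of them (5.22%), against 26.6%. In the pseudoreplicated list 35 segments (13.1%) had a region within 1000 bp, against 34.5%. Segments are short, and among other annotated genes of at most 800 bp 826 of 15645 (5.28%) had a thresholded region within 1000 bp, 2.89% were overlapped and 1247 (7.97%) had a pseudoreplicated region within 1000 bp. The 3 shares for immunoglobulin segments were below those of all genes. Against other short genes, the share within 1000 bp of a thresholded region was close, and the other 2 shares were higher. Of the 226 T cell receptor segments, 24 (10.6%) had a thresholded region within 1000 bp and 74 (32.7%) a pseudoreplicated one.

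The 16 segments were 14 Igh V segments, the joining segment Ighj4 and the constant segment Igkc. The Igh V share was 14 of 115 (12.2%), and 32 of 115 (27.8%) in the pseudoreplicated list. None of the 102 Igk V segments had a region within 1000 bp in either list, nor did any of the 19 D segments or the 12 Igl segments. Among annotated V pseudogenes, which are counted apart from the members, 3 of 81 at Igh and 0 of 74 at Igk had a thresholded region, and 11 and 0 had a pseudoreplicated one. Segments just inside the distance of 1000 bp were Ighj4, with a region 847 bp away, and Igkc, at 359 bp. Just outside were the constant segment Ighg3 at 1191 bp, the joining segment Ighj3 at 1418 bp and the D segment Ighd3-2 at 1626 bp.

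**Figure D1:**
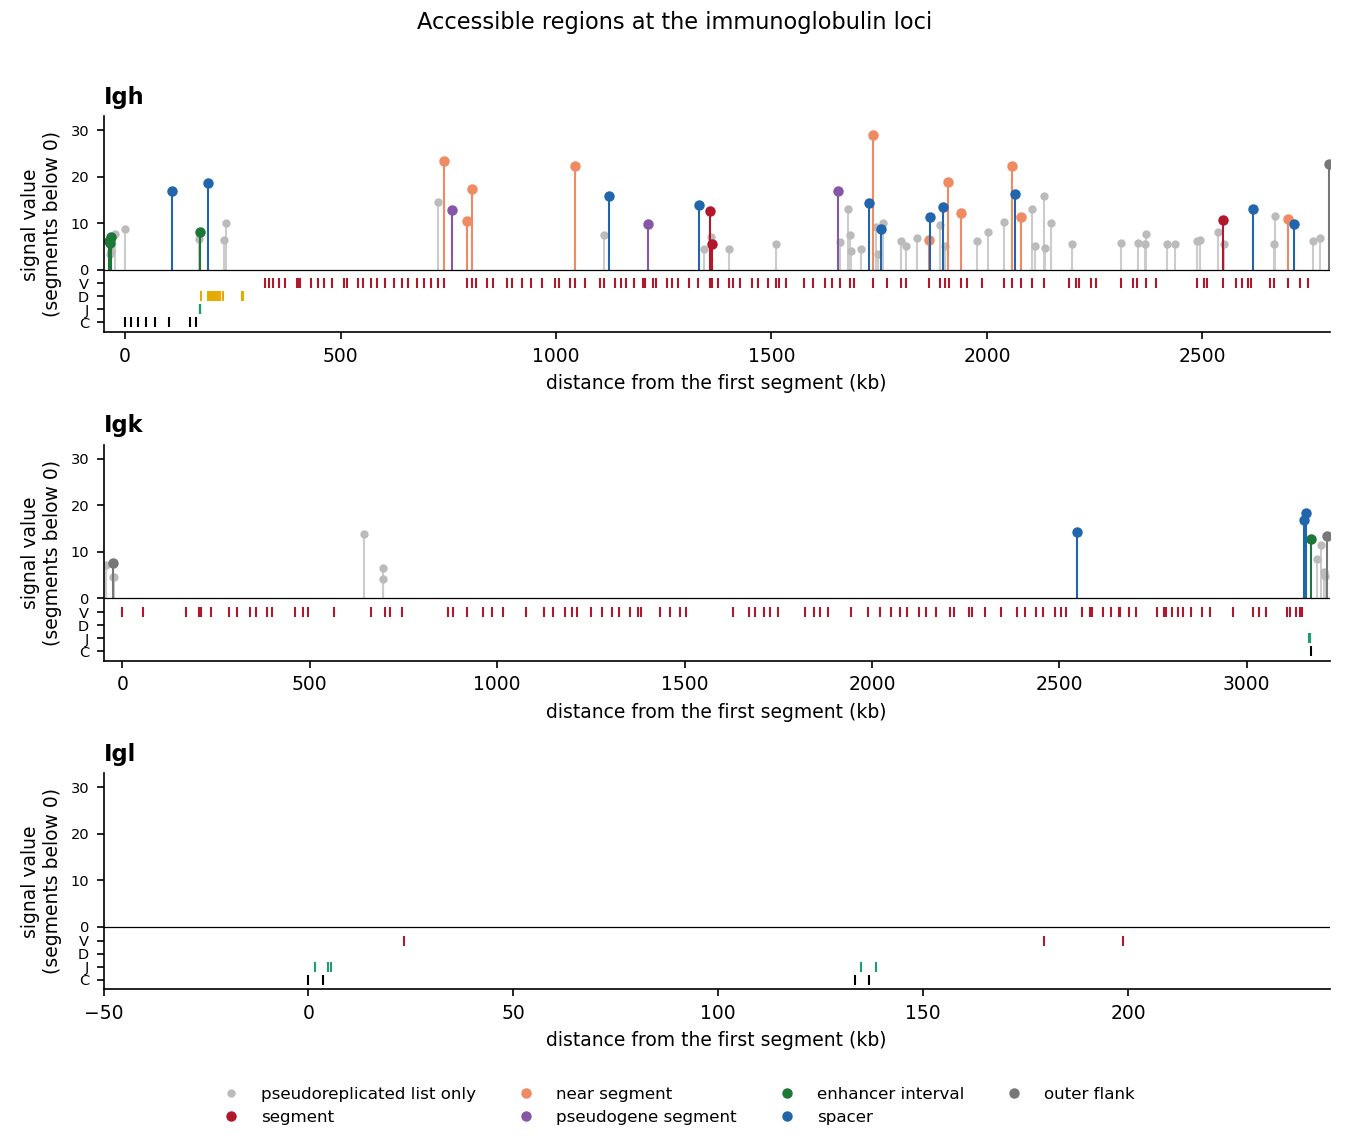
Signal value of each region (upper y axis) against distance in kb from the first segment of Igh, Igk and Igl, with coloured points for the thresholded list by class, grey points for regions in the pseudoreplicated list only, and ticks for V, D, J and C segments below 0. Of the 33 thresholded regions of the Igh window, 26 lie in its V part, from 422 kb past the first V segment onward, 4 of the 6 of Igk lie between its V and J segments or beyond, and Igl has none.

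Regions per length separated the loci. Between the first and last segments, Igh held 10.6 thresholded regions per Mb, Igk 1.26 and Igl 0, beside 9.57 over all chromosomes. The V part of Igk, 3.15 Mb long, held 1 region (0.318 per Mb), while the V part of Igh, 2.42 Mb long, held 26 (10.7 per Mb). Chromosome 6, which carries Igk, held 9.50 per Mb, and chromosome 12, which carries Igh, held 9.62. Of the T cell receptor loci, Trb held 13.5 per Mb, Tra with Trd 10.6 and Trg 5.72. With its 50-kb flanks, the Igh window held 33 thresholded regions, the Igk window 6 and the Igl window 0, and the pseudoreplicated counts were 82, 16 and 0.

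As a measure of how uniquely reads can be placed, the share of 32-base words that occur once in the genome was counted within 150 bp of each segment's 3′ end. Its median was 65.6% for the 14 Igh V segments with a region, 60.7% for the other 101, 62.6% for the 100 segments named Igkv and 97.2% for Igl segments. With pseudogenes included the order at Igh turned, with 64.1% for the 17 with a region and 71.1% for the 179 without. The 26 functional Igh V segments that precede Ighv14-2, none with a thresholded region, had a median of 70.4%, and T cell receptor V segments had 32.4%. The part of read placement in the counts was not tested.

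Classed by the strongest summit, the 39 thresholded regions of the windows fell in a segment (3), within 1000 bp of a segment (11), within 1000 bp of a pseudogene segment (3), in an enhancer interval (5), in a spacer between segments (14) or in the outer flanks (3). An enhancer interval was the stretch from the J segments to the first constant segment, or the 40 kb past the last constant segment. Their median signal was 13.0, beside 13.6 over all 26090 thresholded regions (quartiles 9.89 and 17.97). Their median −log10 p was 47.9, beside 77.4, and their median width was 499 bp, beside 637 bp.

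**Figure D2:**
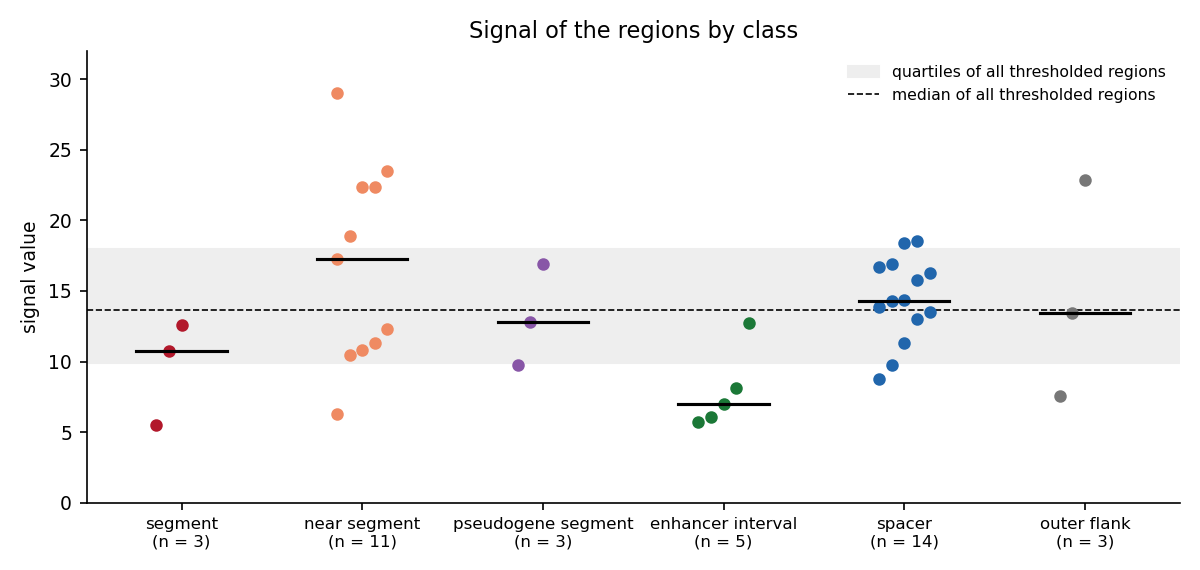
Signal value of the 39 thresholded regions in the 3 windows by class, with black bars for class medians, the dashed line for the median of all thresholded regions and grey shading for their quartiles. The regions just past V segments reach 29.0, while 4 of the 5 in enhancer intervals lie below the lower quartile of 9.89.

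The strongest region of the 3 loci was at Ighv1-47, at chr12:114990859-114991705, where the signal reached 29.0 and the −log10 p 239. It ranked 191 by signal among the 26090 thresholded regions, and its summit lay 14 bp past the segment's 3′ end. The region of Ighv14-2 followed at 23.5, with 141 for −log10 p. Those of Ighv1-58 and Ighv9-4 both had 22.4, with −log10 p values of 110 and 79.8. The 4 strongest V regions thus belong to families Ighv1, Ighv14 and Ighv9.

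Signals of 18.9 at Ighv8-6 and 17.2 at Ighv14-3 followed. The other 8 V segments had signals from 5.47 at Ighv1-12 to 12.6 at Ighv1-11, with Ighv1-54 at 12.3, Ighv1-59 at 11.3, Ighv1-82 at 10.8, Ighv1-74 at 10.7, Ighv11-2 at 10.5 and Ighv1-50 at 6.27. Over the 14 segments the median signal was 12.4, and 6 of them lay above 13.6, the median of all thresholded regions. The 3 pseudogenes with a region, which cannot encode an antibody chain, had signals of 16.9 (Ighv1-38), 12.8 (Ighv4-2) and 9.78 (Ighv1-2), inside the range of the functional segments. The further 18 V segments with a pseudoreplicated region alone had a median signal of 6.07, from 4.39 to 15.9 at Ighv1-62-1.

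All 17 V segments and pseudogenes with a thresholded summit within 1000 bp had the strongest one within 150 bp of the 3′ end, the side of the recombination signal. The median position was 23 bp past the end, in a range from -138 at Ighv1-12 to 141 at Ighv8-6, and 14 of the 17 lay past the end. None lay within 150 bp of the 5′ end, where the promoter is. In the pseudoreplicated list 38 of 43 lay within 150 bp of the 3′ end and 0 within 150 bp of the 5′ end. T cell receptor V segments showed the reverse placement: 1 of 16 thresholded summits lay within 150 bp of the 3′ end and 11 of 16 within 150 bp of the 5′ end, with a median of -94 bp from it. Their pseudoreplicated counts were 5 and 35 of 52.

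**Figure D3:**
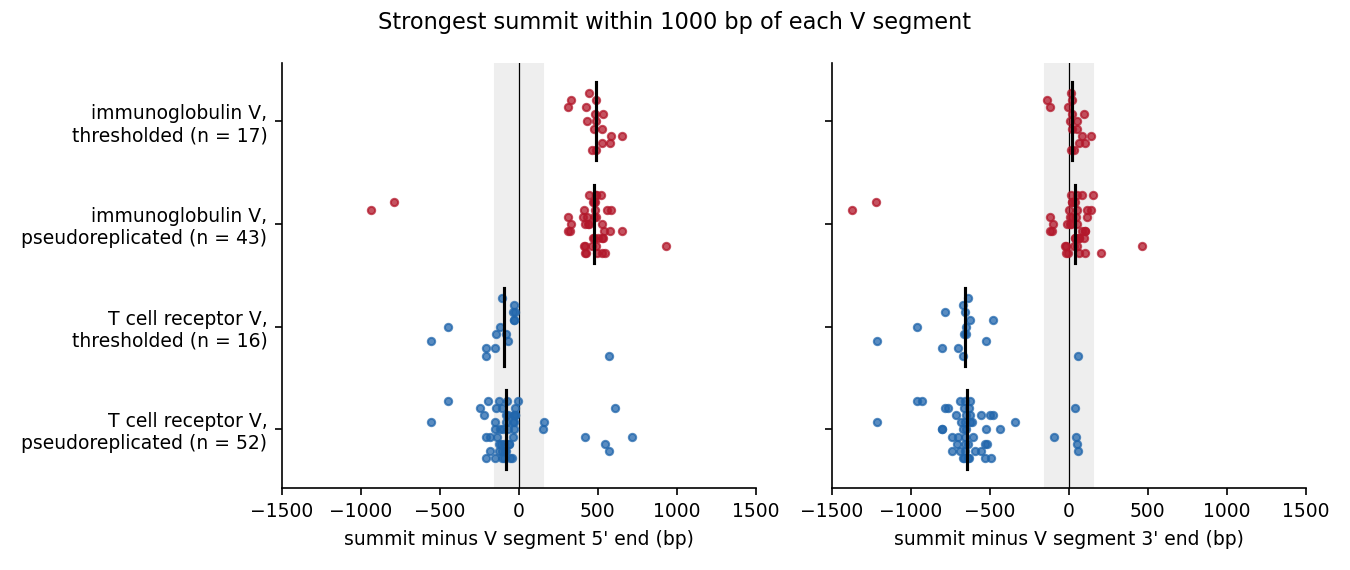
Position of the strongest summit within 1000 bp of each V segment or pseudogene, in bp from its 5′ end (left) and 3′ end (right), with black bars for medians and grey shading for 150 bp on either side. Immunoglobulin summits (red) gather at the 3′ end and T cell receptor summits (blue) at the 5′ end, in both lists.

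The letters of the Runx motif marked most of these V segments. Runx factors bind TGTGGT and act widely in T cells. Of the 17 V segments and pseudogenes with a thresholded region, 14 hold ACCACA in the spacer, and in each of the 14 the match occupies bases 13 to 18 past the segment's annotated end. The median summit of these 14 lay 21 bp past the end. All 17 strongest summits lay within 150 bp of the 3′ end, so nearness to the match restates that placement. It does not set the match apart from the rest of the recombination signal. Single summits ranged from -138 at Ighv1-12 to 103 at Ighv1-50, so not all lay beside the match. The 3 without it were Ighv8-6, Ighv11-2 and the pseudogene Ighv4-2.

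Over all 115 Igh V segments, 47 carried the Runx letters in the spacer, and 12 of these (25.5%) had a thresholded region. Among the 68 without the letters, 2 (2.94%) had one. The pseudoreplicated counts were 25 (53.2%) and 7 (10.3%). Within family Ighv1 alone, the largest with 54 segments, 9 of 40 with the letters had a thresholded region and 22 a pseudoreplicated one, against 0 and 0 of 14 without them. Family Ighv14 gave 2 of 3 with and 0 of 1 without, and Ighv9 gave 1 of 4, all of which carry the letters. Segments of 1 family share sequence by descent and are not independent, so these counts describe the locus and no test was run. This split by spacer letters was not planned in advance.

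Families without the letters mostly had no region. Ighv5 (11 segments), Ighv2 (9), Ighv3 (6), Ighv6 (5) and Ighv7 (4) had 0 in either list. Ighv8 was the main exception, with 1 of 9 in the thresholded list (Ighv8-6) and 4 of 9 in the pseudoreplicated list. Ighv11 had 1 of 2, and both its segments in the pseudoreplicated list. The 1 segment of Ighv12 had a region in the pseudoreplicated list only. The 100 segments named Igkv, whose recombination signals have the short form of spacer, held the letters in no spacer, and neither did the 3 Igl V segments. Among the 144 T cell receptor V segments 8 held them, none of them among the 17 with a thresholded region.

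**Figure D4:**
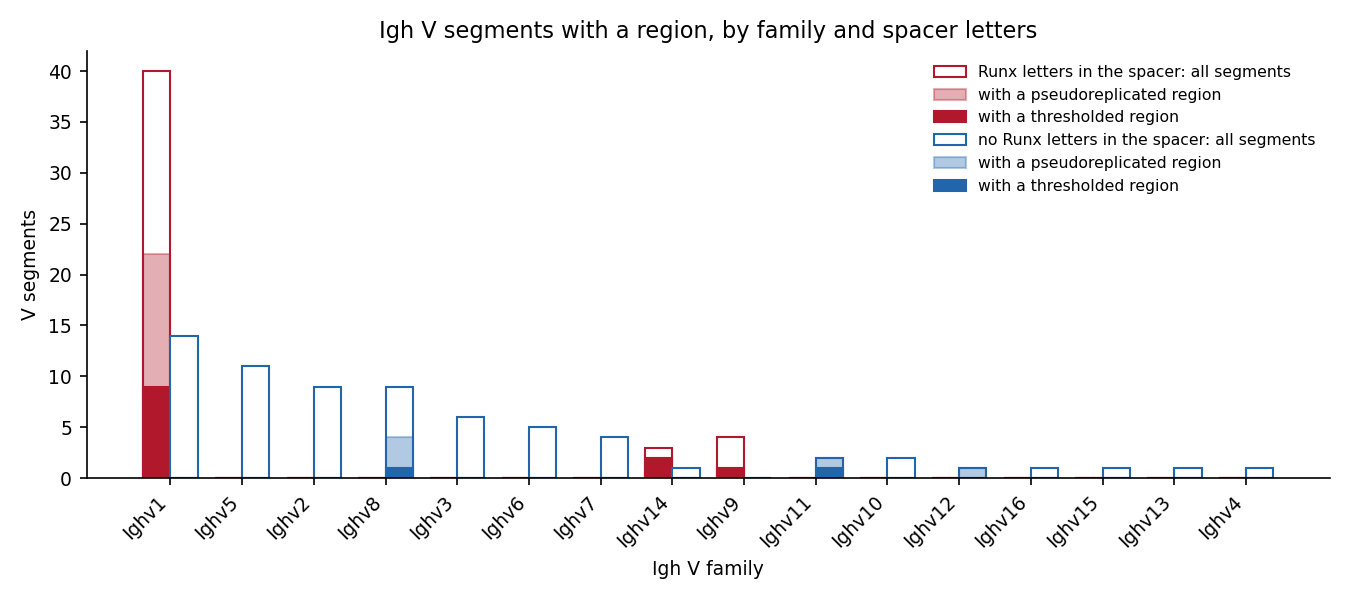
Number of functional Igh V segments (y axis) by family (x axis), split by whether the spacer of the recombination signal holds the Runx letters (red) or not (blue), with open bars for all segments, pale fill for those with a pseudoreplicated region and full colour for those with a thresholded region. In family Ighv1 the 22 segments with a pseudoreplicated region are all among the 40 with the letters.

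Position along Igh moved with the same split. The V segments nearest the D, J and C segments had no thresholded region up to Ighv14-2, 422 kb from the first V segment. This stretch holds 46 V segments and pseudogenes, of which 26 are functional. Of the 46, 1 segment, Ighv11-1, had a pseudoreplicated region. None of the 26 functional segments carries the Runx letters in its spacer. From Ighv14-2 onward, 12 of 47 with the letters and 2 of 42 without had a thresholded region, and 25 and 6 had a pseudoreplicated one. Whether position, family or the letters go with accessibility on their own was not tested. The last V segment with a thresholded region was Ighv1-82, near the distal end.

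Motif letters were counted on both strands in the 300 bases centred on each strongest summit. The 17 V windows held the heptamer CACAGTG in 15 (88.2%), against 8.23% of all thresholded windows, as follows from where these summits lie. Runx TGTGGT was somewhere in 14 of the 17 windows (82.4%), a set that differs from the 14 spacers. The window of Ighv1-12 is centred inside the segment and shows no match. Of all 115 Igh V segments, 47 carried the letters in the spacer, so this share too depends on where the summits lie. Regions of families Ighv1, Ighv14 and Ighv9 align with each other, so the 17 windows are not independent. Over all 39 windows of the loci the Runx letters were in 27 (69.2%), against 26.1% of all thresholded windows. The E-box CANNTG, bound by E2A and related factors, was in 17 of 17, against 73.3%. ETS letters GGAAGT were in 3 (17.6%), against 34.8%, and AP-1 letters TGANTCA in 2 (11.8%), against 11.6%. The octamer ATGCAAAT, a hallmark of immunoglobulin promoters, was in 0 of the 17 and in 1.98% of all windows. The summit closest to a 5′ end, at Ighv1-74, lay 311 bp past it, so none of the 17 windows reaches a V promoter. The 0 thus says nothing about octamers in the promoters. The exact nonamer ACAAAAACC was in none of the 39. The CTCF core CNAGGNGGC was in 1 of the 17, against 10.8%, and a second CTCF form, CANNAGNGG, was in 3, against 24.1%. Among the other 22 windows the second form was in 10 and Runx in 13. These 22 include 6 spacer regions that share a sequence, described below, and are not independent. All 6 hold the second form, which was added after sequences had been seen, so its share here carries no weight. Matches can share bases, as where CACATG, an E-box, runs into CTCF letters.

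**Figure D5:**
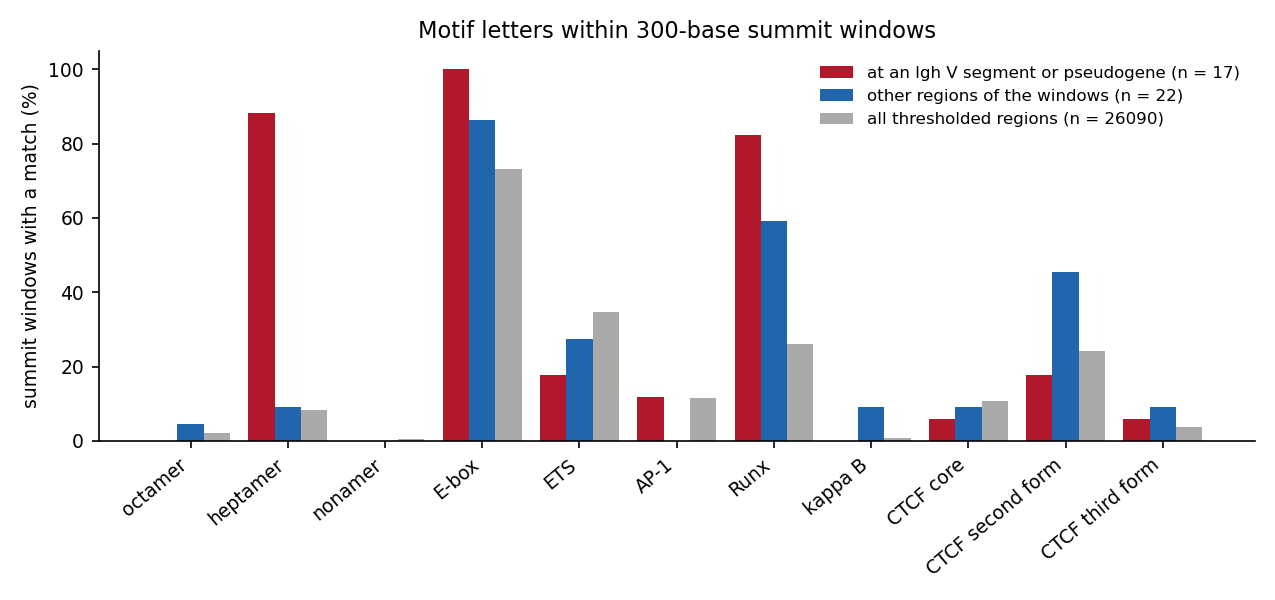
Share of 300-base summit windows with a match to each motif on either strand (y axis, percent), for the 17 windows at Igh V segments or pseudogenes (red), the other 22 thresholded regions of the loci (blue) and all 26090 thresholded regions (grey). Heptamer and Runx letters stand highest above the grey bars at V segments, and Runx and the second CTCF form, CANNAGNGG, also stand above them in the other regions. Many of the 17 V windows share sequence and are not independent. The other regions include 6 spacer regions that share a sequence, and CANNAGNGG was added after sequences had been seen.

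Of the 14 spacer regions, 11 lay in Igh, and 6 of these 11 shared one sequence with each other. All 15 pairs of the 6 aligned over at least 131 bases, with identities from 71.5% to 99.1%. Their summits lay upstream of a V segment or pseudogene, at 3407 bp before Ighv1-9, 3410 bp before Ighv1-78, 3473 bp before Ighv1-83, 3524 bp before Ighv1-46, 4913 bp before Ighv8-3 and 8233 bp before Ighv1-58. The shared stretch is shown for the 6, by falling signal, because the copies can be compared base by base. The sequences are from RefSeq GRCm38.p6 on the strand of the V segments, each cut to start the same distance before its CAGCAGGGG. Capitals mark Runx TGTGGT and, on either strand, CANNAGNGG, a form of the motif of CTCF, the factor that anchors chromatin loops. This form and GNGGCAGCA were added after the sequences had been seen.
Spacer before Ighv1-58, chr12:115320730-115320869, minus strand: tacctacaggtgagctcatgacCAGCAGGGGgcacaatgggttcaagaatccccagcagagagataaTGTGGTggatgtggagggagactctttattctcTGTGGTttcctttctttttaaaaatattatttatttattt
Spacer before Ighv1-46, chr12:114981579-114981718, minus strand: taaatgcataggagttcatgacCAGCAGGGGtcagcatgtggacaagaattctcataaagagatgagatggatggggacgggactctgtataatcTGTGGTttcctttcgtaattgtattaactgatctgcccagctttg
Spacer before Ighv1-9, chr12:114587327-114587466, minus strand: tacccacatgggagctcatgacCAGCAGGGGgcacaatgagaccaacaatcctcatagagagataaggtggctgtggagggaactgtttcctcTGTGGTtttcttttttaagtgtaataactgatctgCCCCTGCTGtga
Spacer before Ighv1-78, chr12:115872550-115872689, minus strand: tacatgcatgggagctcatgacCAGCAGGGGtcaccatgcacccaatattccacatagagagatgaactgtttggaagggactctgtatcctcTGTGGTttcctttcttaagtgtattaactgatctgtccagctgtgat
Spacer before Ighv1-83, chr12:115967612-115967751, minus strand: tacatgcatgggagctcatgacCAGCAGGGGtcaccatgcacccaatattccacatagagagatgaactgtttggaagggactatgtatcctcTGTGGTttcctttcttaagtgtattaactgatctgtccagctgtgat
Spacer before Ighv8-3, chr12:115008528-115008667, minus strand: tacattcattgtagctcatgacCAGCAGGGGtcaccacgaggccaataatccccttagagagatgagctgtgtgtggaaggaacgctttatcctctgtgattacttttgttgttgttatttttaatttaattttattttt

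All 6 hold CAGCAGGGG, and 5 hold TGTGGT downstream of it, the exception being the copy before Ighv8-3. The 6 signals were 16.3, 14.3, 13.8, 13.0, 9.78 and 8.76. Words of 32 bases that occur once in the genome made up 35.9% of the region before Ighv1-58, 16.1% of that before Ighv1-78 and 19.2% of that before Ighv1-83, against 100% of the other 3. How far reads of the near-identical copies can be told apart was not tested. CANNAGNGG is common, in 24.1% of all thresholded windows. A search of all chromosomes with the copy before Ighv1-78 found 83 copies of at least 100 aligned bases, 81 of them between the first and last Igh segments and the other 2 in the distal flank of the same locus. Of the 81, 6 carried a thresholded region and 15 a pseudoreplicated one. Among the 28 of the 81 that hold both motifs, 5 and 10 did, and among the other 53, 1 and 5. The query is among the 5, and CANNAGNGG was added after sequences had been seen. The split therefore cannot show whether the motifs go with accessibility, which was not tested. Repeated intergenic elements named PAIR, bound by CTCF and Pax5 in early B cells, are known from the distal Igh locus, and the annotation used here does not mark them.

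The other 5 Igh spacer regions had their own places. The region at chr12:113446017-113446588, with a signal of 18.6, lay among the D segments, with its summit 1993 bp from Ighd3-2. The region at chr12:113362423-113363061 (16.9) lay 1191 bp upstream of the constant segment Ighg3, and its summit window held the NF-kB letters GGACTTTCC, found in 0.782% of all windows. The widest, chr12:114378516-114379670 (15.8, 1155 bp, 3 summits), had its summit 12019 bp from Ighv12-3. The last 2, 1890 bp from Ighv1-50 and 6231 bp from Ighv1-53, had signals of 11.3 and 13.5. No thresholded region lay in the 50.4 kb between the D and V segments.

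At the enhancers, the intron between J and C segments held a thresholded region in both Igh and Igk. The summit windows are shown because their letters include those by which these enhancers are known: the octamer and E-boxes in Igh, and the NF-kB site and E-boxes in Igk. The Igh window is 300 bases and the Igk window 150, both from RefSeq GRCm38.p6. Capitals mark the octamer, the E-boxes, the Runx letters on either strand and, in Igk, a match to CANNAGNGG that runs into the NF-kB letters.
Igh J to C summit window, chr12:113427383-113427682, plus strand: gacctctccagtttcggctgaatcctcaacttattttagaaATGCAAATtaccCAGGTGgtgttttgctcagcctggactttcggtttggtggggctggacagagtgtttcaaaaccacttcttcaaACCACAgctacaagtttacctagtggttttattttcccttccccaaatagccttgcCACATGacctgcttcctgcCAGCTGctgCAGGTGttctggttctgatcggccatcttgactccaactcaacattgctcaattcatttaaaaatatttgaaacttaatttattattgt
Igk J to C summit window, chr6:70725695-70725844, plus strand: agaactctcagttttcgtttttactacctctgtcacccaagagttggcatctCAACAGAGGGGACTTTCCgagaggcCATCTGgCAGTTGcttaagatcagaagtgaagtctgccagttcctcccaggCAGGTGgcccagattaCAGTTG

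The Igh J to C region, chr12:113427368-113427667, was weak, at a signal of 8.14 and 37.4 for −log10 p. Its 300 bases held 1 octamer, 4 E-boxes and 1 Runx match, and its summit lay 981 bp from Ighj4. The pseudoreplicated list held a second region in this interval, with a signal of 6.51. The Igk J to C region, chr6:70725585-70726076, reached 12.7, with 40.3 for −log10 p. It lay in the long noncoding RNA gene Gm30211, ending 359 bp before Igkc, the only kappa constant segment, and the 150 bases shown held 4 E-boxes and 1 match to GGACTTTCC. Both regions lay below the median signal of all thresholded regions, 13.6. Their IDR was 0.0284 in Igh and 0.0103 in Igk, so neither passed the stricter limit of 0.01 used as an alternative.

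The 40 kb past Igha, the last heavy chain constant segment, held 3 weak thresholded regions with signals of 5.71, 6.04 and 6.99, and summits 32609 to 36779 bp from Igha. This stretch is known for the 3′ regulatory region and for CTCF sites beyond it. The 2 windows that follow, 150 bases each from RefSeq GRCm38.p6, share another CTCF-like form, GNGGCAGCA, which 3.68% of all thresholded windows hold. Capitals mark it, the Runx letters ACCACA in the first and, in the second, an E-box that runs into it.
Igh region past Igha, far, chr12:113217976-113218125, plus strand: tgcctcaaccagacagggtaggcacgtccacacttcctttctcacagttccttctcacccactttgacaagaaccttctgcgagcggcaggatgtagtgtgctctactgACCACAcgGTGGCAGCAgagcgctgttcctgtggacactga
Igh region past Igha, near, chr12:113222146-113222295, plus strand: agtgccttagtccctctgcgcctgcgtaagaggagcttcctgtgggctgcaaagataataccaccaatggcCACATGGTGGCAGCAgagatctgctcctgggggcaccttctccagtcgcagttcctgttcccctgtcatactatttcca

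In the pseudoreplicated list 4 more regions lay in this interval, the strongest 736 bp from Igha with a signal of 8.68, which made Igha the only heavy chain constant segment with a region within 1000 bp in that list. Past Igkc the thresholded list held no region within 40 kb, and the pseudoreplicated list held 4, with signals from 4.68 to 11.5. Igl enhancer intervals held none in either list.

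The strongest kappa regions lay between the V and J segments, an interval of 18.4 kb known to hold the CTCF-bound elements Cer and Sis, which the annotation does not mark. The region at chr6:70714290-70714710 had the higher signal, 18.4, with 247 for −log10 p and its summit 8079 bp from Igkj1. The region at chr6:70709200-70709698 had 16.7 and 204, with its summit 5338 bp past Igkv3-1, the last V segment. The window of the first held CANNAGNGG and that of the second did not. Among the V segments of Igk, the only thresholded region, chr6:70103150-70103613 (14.3), was 54.7% repeat-masked sequence. The 102 Igk V segments lay a median of 392 kb from a thresholded region, and the closest lay 5.02 kb from one.

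Apart from Ighj4 and Igkc, the J and C segments, which every rearranged antibody gene uses, had no thresholded region within 1000 bp. Of the 4 Igh J segments, Ighj4 had the J to C region within 1000 bp, and Ighj3, Ighj2 and Ighj1 lay 1418, 1801 and 2114 bp from it. The Igk J segments lay farther from the Igk J to C region in their order along the locus, Igkj5 at 1658 bp, Igkj4 at 2000 bp, Igkj3 at 2325 bp, Igkj2 at 2627 bp and Igkj1 at 2986 bp. Of the heavy chain constant segments, Ighm and Ighd, which encode the first antibody classes made, lay 4638 and 11044 bp from a thresholded region. Ighg1, Ighg2b, Ighg2c and Ighe lay 31900, 54490, 62719 and 46654 bp away. The Igl segments Iglj1, Iglj2, Iglj3, Iglj3p, Iglj4, Iglc1, Iglc2, Iglc3 and Iglc4 lay 184 kb or more from any thresholded region.

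Markers of the sample were checked by regions within 1000 bp of a transcription start. No share over all genes is given for that window. In the wider window of 1000 bp around the gene, 54.6% of protein-coding genes had a thresholded region and 62.9% a pseudoreplicated one. Of 12 T cell markers, 9 had a thresholded promoter region and 11 a pseudoreplicated one, and of 6 regulatory T cell markers 5 did in both. Of 12 B cell markers, 5 had a thresholded promoter region (signal 7.91 to 22.02) and 7 a pseudoreplicated one. Ms4a1, Cd79a, Fcer2a and Spib were among those with none in either list, while Cr2 (22.02), Pou2af1 (16.7), Pax5 (10.8), Ebf1 (10.03) and Blk (7.91) had one. Of 6 plasma cell markers 3 had one, Prdm1 (24.5), Xbp1 (16.6) and Irf4 (6.78), which T cells also use, and Mzb1 and Jchain had none in either list. The part of any B lineage cells in the regions above was not tested.

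Genes that act on the segments split by role. Of 13 V(D)J recombination genes, 10 had a thresholded promoter region: the DNA end-joining genes such as Xrcc4 (25.5) and Xrcc5 (20.8), the kinase gene Atm (19.02) and Hmgb2 (20.6), whose protein bends DNA. The lymphocyte-specific members Rag1 and Rag2, the recombinase itself, and Dntt, which adds untemplated bases, had none in either list. Of 7 genes for partner chains of the antibody, only Vpreb1, a surrogate light chain gene, had a thresholded promoter region (22.3). Of 18 regulators of the loci, 15 had one, among them Irf8 (22.2), Tcf3 (19.98), which encodes E2A, Rad21 (19.4) and Ezh2 (18.8). Over all protein-coding genes 54.6% had a thresholded region within 1000 bp of the gene, a wider window than the promoter.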

How the data were processed

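ATAC-seq of 2 libraries of 1 group was analysed from 3 peak lists on mm10 that the authors deposited for both libraries together: pseudoreplicated, IDR-ranked and IDR-thresholded. The sources used here do not name the aligner, peak caller or filters. The deposited signal value and −log10 p-value of each peak are the authors', as is the score, which was not used for any result. Overlapping peaks (at least 1 bp) were merged, and each region took the values of its strongest peak. Distances of 1000 bp, flanks of 50 kb and enhancer intervals of 40 kb were measured to GENCODE M21 genes. The text names every segment with a thresholded region within 1000 bp, the 3 just outside, all J and C segments, every region in an enhancer interval, and the 5 strongest regions of each locus. Pseudogenes, the other spacer regions and members of the gene lists without a region were named after their values were seen. Members and lists were chosen with earlier results of these data known, and the CTCF forms CANNAGNGG and GNGGCAGCA were added after sequences had been seen. The plan set motif searches in summit windows only. The counts of Runx letters in spacers, by segment, family and position, were not part of it. Sequences came from RefSeq GRCm38.p6. Merging and distances were tested on simulated data. Python 3.11.15, numpy 2.4.6, pandas 2.3.3, pysam 0.24.0, matplotlib 3.10.9 and blastn 2.17.0 were used. The alternatives were the pseudoreplicated list, both lists merged, a stricter limit on the IDR, other distances and other flanks. Some members of the gene lists are not reported here.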

Additional observations from a re-analysis of the deposited data

How the results depend on the processing

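Of 41 alternative values for 9 counts, 21 kept within 1.5 times the count reported and 20 did not. With the pseudoreplicated list, segments with a region within 1000 bp numbered 35, segments overlapped 30, T cell receptor segments 74, regions in the Igh window 82, in the Igk window 16, in or within 1000 bp of a segment 35, in enhancer intervals 14 and in spacers 31. Merging both lists gave 82 at Igh and 16 at Igk. With a global IDR of 0.01 or below, the same counts were 8 segments near and 8 overlapped, with 20 regions at Igh and 3 at Igk. By class there were 8 at segments, 3 in enhancer intervals and 9 in spacers. The 3 in enhancer intervals all lay past Igha, and the J to C regions of Igh and Igk were lost. Flanks of 200 kb gave 17 at Igk and 1 at Igl. A distance of 2500 bp gave 38 T cell receptor segments. No replicate could be left out because the lists pool both libraries. No paired analysis was possible because there is 1 group. Read depth is unknown, so no interval could be given.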

Other observations

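Genes that border the antibody loci gave some of the stronger regions of the windows. The region with the highest −log10 p of the 39, 457, lay 47212 bp past Ighv1-85 at the start of the zinc finger gene Zfp386, with a signal of 22.8. Past Igkc, a region in Rpia, which encodes an enzyme of the pentose phosphate pathway, had a signal of 13.4 and lay 41985 bp from the constant segment. On the V side of Igk the region nearest the locus, 23532 bp from the outermost V segment, had a signal of 7.57 and lay near the noncoding RNA gene Gm42889.

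Repeat-masked sequence, as marked in the RefSeq genome, differed by class. It covered a median of 26.7% of the 14 spacer regions, from 6.51% to 54.7%, and 3.31% of the 11 regions within 1000 bp of a segment. In 250-kb steps from the first Igh V segment, the first step held 32 V segments and pseudogenes and no region in either list, while the one that holds Ighv1-50 to Ighv1-58 held 12 and 7 thresholded regions.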
